A study of Mus musculus with 6 samples.

Results

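The 7 probes described here carry the names mmu-miR-685, mmu-miR-689, mmu-miR-690, mmu-miR-705, mmu-miR-709, mmu-miR-762 and mmu-miR-1224, out of 599 mouse microRNA (miRNA) probes on the array. They were chosen by name, as early mouse entries whose standing as miRNAs was doubted because of an origin in structural RNA or a high content of G and C. The list was drawn up with earlier results of these data known, so the levels and differences below are a description of these probes. All 7 names were found in each of the 6 scanner files and in the deposited series table, and all 7 passed the filter on dim probes. The prefix mmu, for mouse, is left out of most names below.

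A miRNA is cut from a hairpin in a longer transcript, loaded into an Argonaute protein and directed to messenger RNAs mainly by its seed, bases 2 to 8 from the 5′ end. Early catalogues were built by cloning small RNAs, and the clones could also hold fragments of transfer RNA, ribosomal RNA or repeats. miR-1224 has another known route: it is a mirtron, a short intron whose spliced ends form the hairpin without the first of the usual cuts.

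The cells were smooth muscle cells of mouse kidney arterioles (aSMCs), a primary line of the renin cell lineage at passage 7 with a mixed 129Sv/C57Bl6 background. Forskolin switches on adenylyl cyclase, and IBMX blocks the phosphodiesterases that break down cyclic AMP. In the treated group, 3 cultures were kept in 10 µM forskolin and 100 µM IBMX for 24 h, with a second dose of 10 µM forskolin over 30 min before harvest. The control group was 3 cultures with no treatment, and the labels mention no vehicle. Each culture was grown and harvested independently, and all came from a single cell line, which limits them as a model of renin cells in the kidney. Total RNA was size-fractionated, tailed with poly(A), tagged and stained with Cy3 or Cy5. The tailed fraction reached up to small RNAs of several miRNA lengths, so a probe can also bind a fragment or a longer small RNA that holds its target.

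The targets of the probes, as the array files give them, show what the probes have in common and where they part. The capitals mark the seed.
mmu-miR-685: uCAAUGGCugaggugaggcac
mmu-miR-689: cGUCCCCGcucggcggggucc
mmu-miR-690: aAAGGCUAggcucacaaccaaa
mmu-miR-705: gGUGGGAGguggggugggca
mmu-miR-709: gGAGGCAGaggcaggagga
mmu-miR-762: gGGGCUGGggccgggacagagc
mmu-miR-1224: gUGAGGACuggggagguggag
The 7 seeds were all different, and none was shared with another probe of the array. The GC share of the target was 85.7% for miR-689, 81.8% for miR-762, 75% for miR-705, 68.4% for miR-709, 66.7% for miR-1224, 57.1% for miR-685 and 45.5% for miR-690. Over the 599 probes the share ranged from 19.0% to 85.7% with a median of 45.5%. miR-689 thus had the highest GC share of any target, and miR-690 sat at the median, so the description as rich in GC holds for 5 of the 7 at 60% or over and not for miR-690.

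Among the 5 probes at 60% or over, G and C were not evenly split. G alone made up 70.0% of the target of miR-705, 61.9% of miR-1224, 59.1% of miR-762 and 57.9% of miR-709, against a median of 23.8% over the array. In miR-689 it was 38.1%, with runs of 4 C and of 4 G. The motif GGG stood in 4 of the 7 targets and in 21.7% of all targets.

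The RefSeq tables (GRCm38.p6) held a gene for 5 of the 7 names, miR-690, miR-705, miR-709, miR-762 and miR-1224, so a description as withdrawn entries does not hold for these in that source. For miR-690, miR-705, miR-762 and miR-1224 the RefSeq mature sequence was identical to the array's target. For miR-709 no identical mature sequence was found, and no hairpin was available to fold. Each of the 5 lies within the span of a protein-coding gene: Mir690 (chr16:28599935-28600043) in Fgf12, Mir705 (chr6:85336292-85336373) in Rab11fip5, Mir709 (chr8:84086099-84086186) in Rfx1, Mir762 (chr7:127708487-127708562) in Bcl7c and Mir1224 (chr16:20604452-20604536) in Vwa5b2. Whether these places are exonic or intronic, and whether any target matches a structural RNA, was not analysed here.

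The hairpins of miR-690 and miR-1224 are shown because the first has a weak predicted fold and the second has ends like those of an intron, with the array's target in capitals.
miR-690 hairpin: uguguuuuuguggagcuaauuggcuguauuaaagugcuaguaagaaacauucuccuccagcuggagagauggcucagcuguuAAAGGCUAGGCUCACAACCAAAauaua
miR-1224 hairpin: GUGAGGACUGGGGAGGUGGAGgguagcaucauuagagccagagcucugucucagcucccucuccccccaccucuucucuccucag
The miR-1224 hairpin, on the plus strand, opens with GU at the first base of the target and closes with AG, the letters at the ends of an intron. Of 1005 mouse hairpins in RefSeq, 30 have both, a share of 2.99%. The folded miR-690 hairpin, on the minus strand, had a predicted free energy of -0.27 kcal/mol per base, and only 5.57% of the 1005 hairpins were less stable. Of the bases of its target 68.2% were paired, against a median of 81.0% over 1635 mature strands. The other folded hairpins were more stable per base than the median of -0.41 kcal/mol, with -0.50 for miR-705, -0.72 for miR-762 and -0.50 for miR-1224.

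All 7 probes were detected in all 6 samples, with the 5 spots averaging over 3 SDs of the empty spots above the empty-spot mean. The margin was narrow for miR-685, at 3.78 to 12.5 SDs of the empty spots, and at least 76.8 SDs for each of the other 6. Over the whole array, 585 of 599 probes were detected in forskolin 2 and 162 to 225 in the other 5 samples. With the background taken from probes at or below the median of their sample it was 227 in forskolin 2 and 216 to 261 in the others. The test took the 167 that were detected throughout the control group, the forskolin group or both. Both smooth muscle markers, miR-143 and miR-145, were detected in all 6 samples, as were 0 of 5 epithelial, 0 of 3 kidney tubule, 0 of 2 endothelial, 0 of 5 blood and 1 of 3 neural markers. With the background from probes at or below the sample median, 2 of the 3 kidney tubule markers were detected in all 6 samples as well, at normalized log2 levels of at most 6.97 over the list. Control 2 was the dimmest sample. Before normalization, the tested probes were 1.75 log2 units higher in forskolin 2 than in control 2 by the median. They were 0.40 lower in forskolin 1 and 1.10 lower in forskolin 3 than in the control of the same number. How each of the 7 probes differed in that raw signal is shown in the plot of intensity over empty spots.

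**Figure D1:**
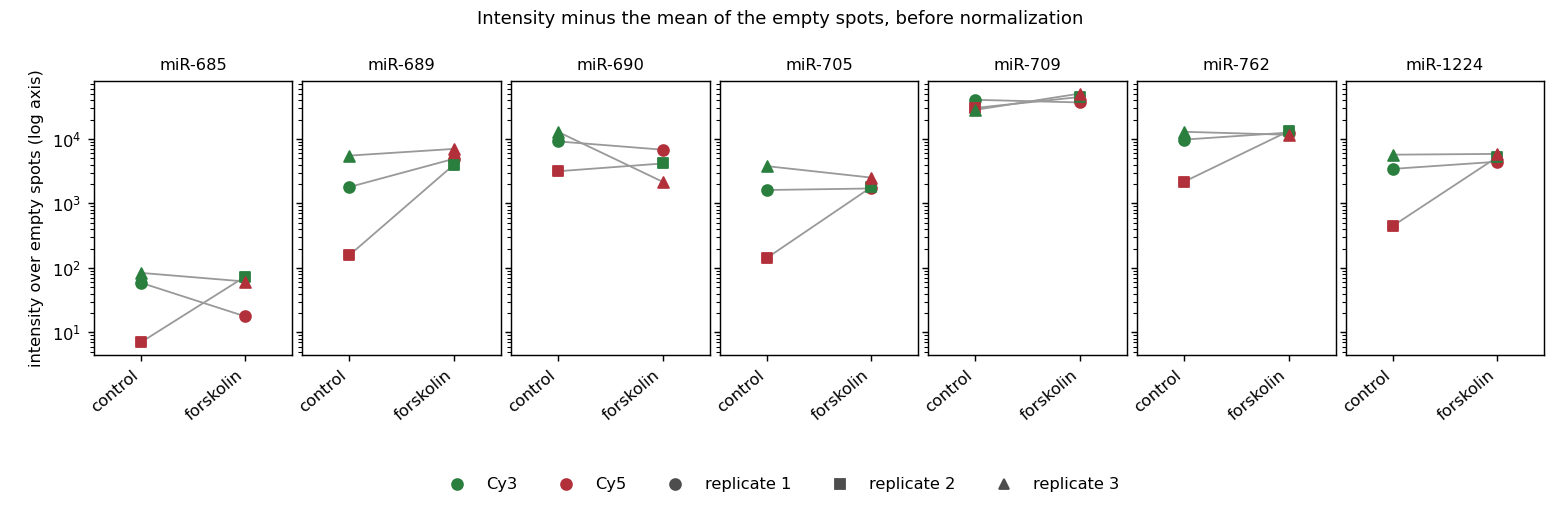
Intensity of each of the 7 probes minus the mean of the empty spots (log axis, arbitrary units), before normalization, in 3 control and 3 forskolin samples. Points are the means of 5 spots, colours the dyes, marker shapes the replicate numbers, and lines join samples of the same number. Control 2 (square, Cy5) was the lowest control for 6 probes, at 157 for miR-689 against 1796 and 5515, while for miR-709 it read 30270, between control 3 and control 1.

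The comparison asked how the probes differed after forskolin and IBMX. miR-689, the probe with the highest GC share, was 3.30-fold higher in forskolin cultures. miR-1224, the mirtron, was 1.82-fold higher, and miR-705, whose target is mostly G, 1.64-fold higher. miR-690, the member at the array's median of GC, was 2.71-fold lower. After quantile normalization miR-762, miR-709 and miR-685 had fitted changes within 1.09-fold, but miR-762 was higher under some other scalings, given below.

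None of the 7 passed an adjusted p of 0.05 in limma (Benjamini-Hochberg over all 167 tested probes, two-sided), where 10 of the 167 passed, or 5.99%. At an unadjusted p under 0.05 there were 3 of the 7, against 19.2% of tested probes. With the replicate number as a block, 3 of the 7 passed, against 18% of tested probes. That fit left 1 residual degree of freedom and gave every probe the same SE of 0.30. Its p-values therefore do not measure the spread of a single probe over the pairs. Of those 3, miR-689 and miR-1224 were higher, as 10.8% of tested probes were, and miR-690 was lower, as 7.19% were. Groups did not overlap for the same 3 probes, against 23.4% of tested probes. All 3 pairs agreed in sign for these and for miR-705, 4 of the 7, against 50.9% of tested probes. The control and the forskolin sample of every pair carried different dyes, so each pair difference holds treatment and dye together. Since the list was drawn up with results known, nothing is read from these counts.

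**Figure D2:**
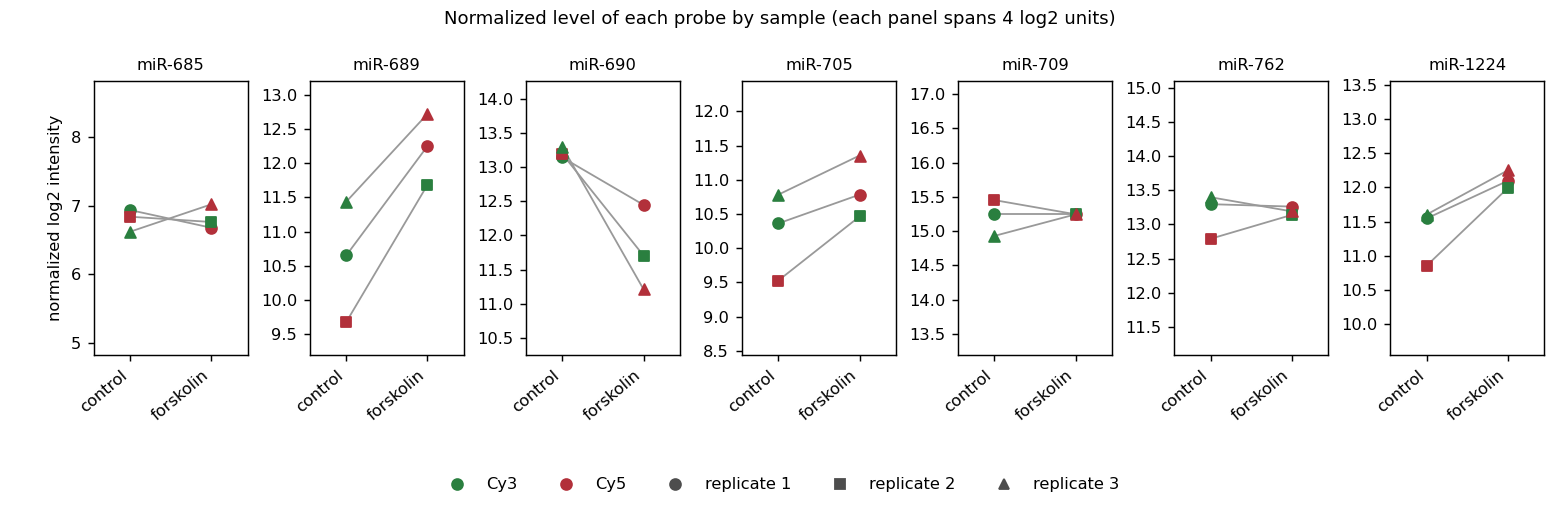
Normalized log2 intensity of the 7 probes in 3 control and 3 forskolin samples. Each panel spans 4 log2 units, points are samples, colours the dyes, marker shapes the replicate numbers, and lines join samples of the same number. The forskolin end of all 3 lines is the higher for miR-689, miR-705 and miR-1224 and the lower for miR-690, while the forskolin values of miR-709 coincide at 15.25.

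mmu-miR-689 read a normalized log2 intensity of 10.65, 9.68 and 11.44 in control 1 to 3 and 12.25, 11.68 and 12.72 in forskolin 1 to 3. Every forskolin value lay above every control value, and control 2 was the lowest. The control mean was 10.59 ± 0.88 and the forskolin mean 12.22 ± 0.52 (SD, n = 3 each). The fit gave a log2 fold change of 1.72 and a standard error (SE) of 0.50. Its limma adjusted p was 0.0978. With replicate number as a block it was 1.47e-06, but from an SE of 0.30 shared by all probes, not from the spread of miR-689 itself. Within replicate numbers, where the dye also differed, the log2 difference was 1.60, 2.01 and 1.28, so the forskolin sample was higher in 3 of 3 pairs. In the deposited series table the ratio of forskolin to control was 3.10, 4.39 and 2.44 in the same pairs. The samples of a dye gave unequal differences, 0.64 among the Cy3 samples and 2.81 among the Cy5 samples, whose 1 control was control 2. Without control 2 every control left is Cy3, so the fit with the dye term rests on forskolin 2 alone as the treated sample, assumed to vary like the others, and nearly repeats the Cy3 difference. It gave 0.60 for miR-689, SE 0.44, at a limma adjusted p of 0.791. With no dye term, an alternative chosen after seeing the data, the value without control 2 was 1.14, SE 0.39, at a limma adjusted p of 0.162, but dye is then not adjusted for.

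For mmu-miR-1224 the control values were 11.54, 10.85 and 11.60 and the forskolin values 12.10, 11.99 and 12.25. The groups did not overlap, and control 2 was again the lowest. The means were 11.33 ± 0.42 and 12.11 ± 0.13 (SD, n = 3 each). The fitted difference was 0.87 on the log2 scale, SE 0.26, at a limma adjusted p of 0.102, and of 0.0274 in the block fit with its shared SE. The pair differences were 0.55, 1.14 and 0.65, and the deposited ratios 1.49, 2.53 and 1.97. It was higher by 0.42 among Cy3 samples and by 1.32 among Cy5 samples. Without control 2 the value for miR-1224 was 0.42, SE 0.27, at a limma adjusted p of 0.734 in the fit that rests on forskolin 2 alone, and 0.55, SE 0.16, at a limma adjusted p of 0.120 with no dye term.

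mmu-miR-705 read 10.36, 9.53 and 10.78 in controls and 10.78, 10.46 and 11.35 in forskolin cultures. The groups overlapped, though each forskolin sample lay above the control of the same number, by 0.42, 0.94 and 0.57. The log2 fold change was 0.72, SE 0.40, at a limma adjusted p of 0.390. Without control 2 it was -0.11, SE 0.37, in the fit that rests on forskolin 2 alone, as the Cy3 difference also was, and 0.27, SE 0.30, with no dye term. The spots of miR-705 also scattered more than those of the other members, with a coefficient of variation of 13.0% to 45.4% per sample. A spot in row 112 and column 29 was singled out after its values were seen. In control 2 it read 314 against 123 to 146 in the other 4 spots, and in forskolin 2 it read 706 against 2036 to 2521. It also lay above the other 4 spots in control 1 and forskolin 1, and below them in control 3 and forskolin 3. With the median of the spots in place of the mean, the log2 fold change of miR-705 was 0.90, SE 0.48.

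miR-705 and miR-1224 share a run of 9 bases, marked in capitals.
miR-705: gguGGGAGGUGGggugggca
miR-1224: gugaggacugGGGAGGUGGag
Of the 599 targets, 60.6% share a run of 9 or more bases with some other target, so a run of that length is common on this array. The profiles of both probes over the 6 samples, each taken as deviations from its own mean, differed by a root mean square of 0.25 log2 units, within deviations of 0.55 for miR-705 and 0.46 for miR-1224. Binding of 1 RNA to both probes was not tested.

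mmu-miR-690 had the lowest fitted value of the 7. Its control values were close together, at 13.14, 13.19 and 13.30, and its forskolin values were 12.45, 11.71 and 11.21. Every forskolin sample lay below every control sample. The control mean was 13.21 ± 0.080 and the forskolin mean 11.79 ± 0.62 (SD, n = 3 each), so the spread was in the treated cultures. The log2 fold change was -1.44, SE 0.35, at a limma adjusted p of 0.0688, and of 5.30e-05 in the block fit with its shared SE. The pair differences were -0.69, -1.49 and -2.08. In the deposited table the control value was 1.30, 2.57 and 3.56 times the forskolin value in these pairs. The difference was nearly equal in the dyes, at -1.51 among Cy3 samples and -1.36 among Cy5 samples. Without control 2 it was -1.51, SE 0.55, at a limma adjusted p of 0.384 in the fit that rests on forskolin 2 alone, and -1.41, SE 0.36, at a limma adjusted p of 0.0964 with no dye term. Before normalization the net intensity of miR-690 in pair 2 ran the other way, from 3155 in control 2 to 4164 in forskolin 2. The difference of 0.40 log2 units compares with 1.75 for the median tested probe of the same pair. In pair 1 the difference before normalization was -0.43 against a median of -0.40, so miR-690 hardly differed from the median probe there. In pair 3 it was -2.55 against -1.10.

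The remaining 3 probes had groups that overlapped. mmu-miR-762 read 13.30, 12.79 and 13.40 in controls and 13.26, 13.14 and 13.19 in forskolin cultures, and the fit gave 0.11 on the log2 scale (SE 0.23) at a limma adjusted p of 0.834. Its differences were of opposite sign in the dyes, at -0.21 in Cy3 and 0.44 in Cy5. In the deposited table, by contrast, the ratio of forskolin to control was above 1 in all pairs, at 1.24, 1.83 and 1.04. The fitted value of miR-762 was 0.49 with cyclic loess, 0.64 under the 75th percentile and 0.62 under the median. The limma adjusted p was 0.331, 0.311 and 0.379 in these. Before normalization miR-762 lay above the median tested probe in each pair, by 0.76, 0.83 and 0.94 log2 units. The small value of 0.11 thus belongs to quantile normalization.

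mmu-miR-709, whose RefSeq gene lies within Rfx1, read 15.25, 15.45 and 14.93 in controls and 15.25 in each forskolin sample. Equal values arise because quantile normalization gives probes of equal rank the same value, so the SD of 0 in the forskolin group is not a measure of spread. Its log2 fold change was -0.025, SE 0.22, at a limma adjusted p of 0.962. In the deposited table the control value of miR-709 was higher in all pairs, by 1.46, 1.20 and 1.18 times. The net intensity before normalization was 40399, 30270 and 28244 in controls and 36774, 44684 and 50506 in forskolin cultures, lower in pair 1 and higher in pairs 2 and 3. The sign for miR-709 therefore differed between scalings. It also turned with no dye term (0.036), where the scaling was the same.

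mmu-miR-685, the dimmest member over its background, read 6.94, 6.84 and 6.62 in controls and 6.68, 6.76 and 7.02 in forskolin cultures. Its log2 fold change was -0.0032, SE 0.22, at a limma adjusted p of 0.993. The net intensity was only 6.99 in control 2 and 17.7 in forskolin 1, so a change of this probe could hardly be measured there.

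**Figure D3:**
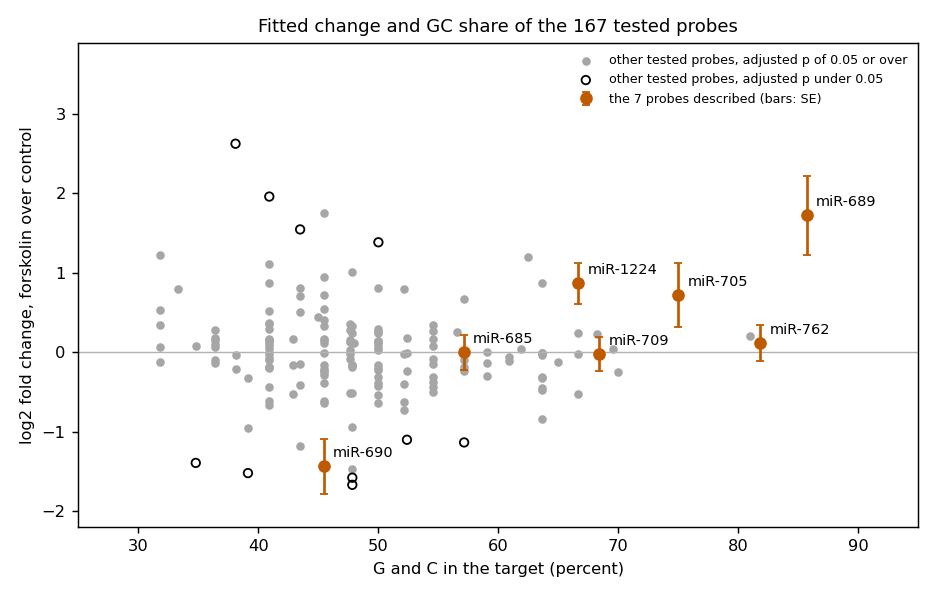
Fitted log2 fold change (forskolin over control) against the GC share of the target in percent, for the 167 tested probes. Orange points with SE bars are the 7 probes described, open circles the 10 probes at an adjusted p under 0.05, and grey points the others. miR-689 stands at the right edge at 1.72, and miR-690 at -1.44 lies among targets of middle GC share.

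The relation of GC share to the fitted change was not tested, and is described by classes. Of the tested probes, 26 had a GC share of 60% or over, 5 of them members. The other 21 had a median log2 fold change of -0.033, with 7 positive, 14 negative and none past a limma adjusted p of 0.05 (3 at an unadjusted p under 0.05, and 3 past the threshold with the block), beside a median of -0.014 over all 167. Their log2 fold changes ran from -0.84 to 1.19. Among them miR-714, with a GC share of 81.0%, had 0.21, SE 0.26. In the classes of 40% to 60% and of under 40%, the medians were -0.019 over 120 probes and 0.067 over 21.

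Another set was taken by number alone, the 54 other probes named miR-680 to miR-721, miR-759 to miR-763, miR-805 and miR-1186 to miR-1196. Of these 7 could be tested, and none passed in limma, with or without the block or the adjustment, with a median log2 fold change of 0.21, 4 positive and 3 negative. miR-720 had -0.52, SE 0.36, and was lower in 3 of 3 pairs. miR-805 had 0.44, SE 0.39, and miR-1196 had 0.25, SE 0.63, and both were higher in pair 3 by 1.60 and 1.50 while lower in pair 1. miR-714, miR-699 and miR-680 had 0.21, -0.25 and 0.25. The lowest limma adjusted p of these 7 was 0.504 without the block and 0.287 with it, both for miR-720.

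Probes for 5S ribosomal RNA, 5 in number with 4 spots each, are also on the array as controls and show a structural RNA directly. Their mean intensity ran from 1785 to 46756 over samples. Before normalization all 5 were lower in the forskolin sample of pairs 1 and 3, by 0.10 to 0.91 and by 0.25 to 1.94 log2 units, and 2 of 5 were lower in pair 2. Set against the median of the tested probes in the same pair, their differences ran from -0.51 to 0.29 in pair 1, from -1.99 to -1.01 in pair 2 and from -0.84 to 0.85 in pair 3. The part of 5S RNA, dye or sample brightness in the differences of the 7 probes was not tested.

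The probes whose profiles over the 6 samples were most like those of the members were found, among the tested probes outside the 7, by the root mean square difference of deviations from each probe's own mean. For miR-690 they were miR-20a and miR-18a, at 0.23 and 0.25 log2 units, against a deviation of 0.80 for miR-690 itself. miR-20a had a log2 fold change of -1.52 and miR-18a of -1.18. For miR-1224 they were miR-652 and miR-181b, at 0.19 and 0.23. For miR-705 they were miR-680 and miR-181d, at 0.26 and 0.30, farther than the member miR-1224 at 0.25. The closest to miR-689, miR-290-5p and miR-30a*, were both 0.55 away, against a deviation of 1.01, and the member miR-705 was 0.52 away. The closest to miR-762 were miR-21 and miR-22*, both at 0.13, to miR-709 both strands of miR-125a at 0.095 and 0.10, and to miR-685 let-7f and miR-182 at 0.073 and 0.093. These last 3 members varied little, with deviations of 0.19, 0.15 and 0.14, so likeness says little there.

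**Figure D4:**
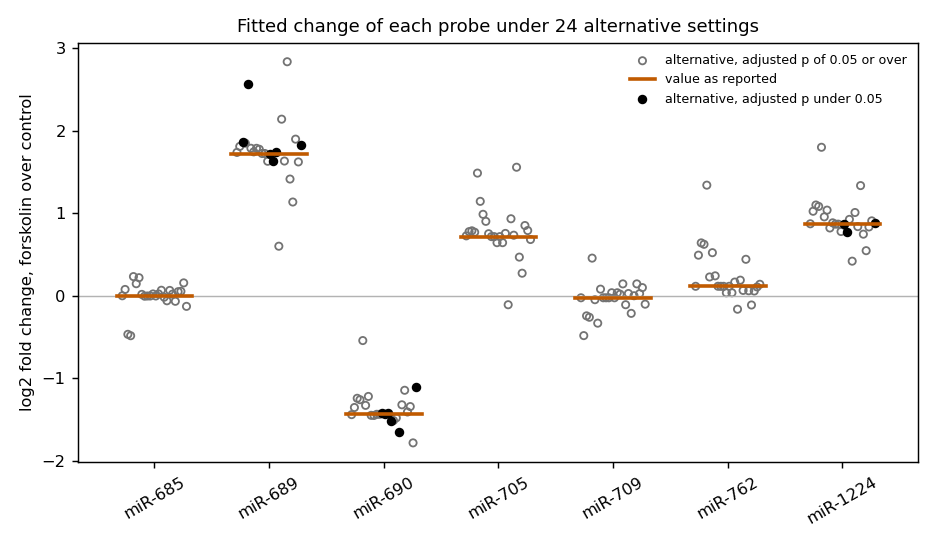
Fitted log2 fold change (forskolin over control) of each of the 7 probes under 24 alternative settings (circles, filled where the adjusted p was under 0.05) and as reported (bars). All values of miR-689 and miR-1224 lie above 0 and all of miR-690 below 0, with ranges of 0.60 to 2.83, 0.42 to 1.80 and -1.78 to -0.54.

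Over 24 alternative settings, miR-689 and miR-690 each passed an adjusted p of 0.05 in 6, miR-1224 in 3 and the other 4 probes in none. For all 3 probes that passed, the settings include the block fit with its shared SE. For miR-689 they also include no normalization, where the members shared an SE as well. The limma adjusted p ran from 1.47e-06 to 0.791 for miR-689, from 5.30e-05 to 0.804 for miR-690 and from 0.0274 to 0.734 for miR-1224. The sign was kept in 24 of 24 settings for these 3 probes, in 23 for miR-705, in 22 for miR-762, in 14 for miR-709 and in 11 for miR-685.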

How the data were processed

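Scanner files were deposited with the intensity of each spot in a single dye as a mean density, and empty spots well above 0 show that no background was subtracted, per the file headers and values. In the authors' series table each miRNA has a single linear intensity per sample. Its log2 values correlated with those of net spot intensity at 0.982 or above over the 167 tested probes, with 50 added to both. Its median per sample is 8 to 11, below the empty-spot means of 31.6 to 200.1 in the scanner files. The authors' normalization of it is unknown. All 3968 spots were corrected by normexp (offset 50). Probe means over 5 spots were then put on the log2 scale and quantile-normalized over 599 probes (limma 3.58.1, R 4.3.3). limma was fitted on 167 probes with terms for treatment and dye (2 of 3 controls and 1 of 3 forskolin samples were Cy3), Benjamini-Hochberg adjusted, threshold 0.05. The steps were run on simulated data with known changes, random noise and each sample's background. The simulated samples had no dye effect, no pair effect and no difference in brightness. The run therefore does not show how the steps deal with these. The offset makes changes of dim probes look smaller. The number of arrays limits the precision. Deviations from group means correlated between samples of the same replicate number at 0.397, 0.473 and 0.359, so the numbers were taken to pair samples. This pairing comes from the data, since the labels give only the numbers. With block and dye term, 1 residual degree of freedom was left and every probe had an SE of 0.30. SEs in the text are from the fit without the block.

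Members and lists were chosen with earlier results of these data known. Named probes were the members, the 2 most alike tested probes of each, and up to 6 numbered neighbours by smallest p. Sequences are from the array files and RefSeq (GRCm38.p6), and hairpins were folded with RNAfold 2.7.2.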

Additional observations from a re-analysis of the deposited data

How the results depend on the processing

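The count of 10 called probes was 5 with no normalization and 5 with the median of the spots, 1 with all 599 probes, 18 with no dye term, 30 with the replicate block and dye term and 24 with the block and no dye term. Leaving out samples or pairs gave 0 to 27. No probe passed without control 2 (20 probes at an unadjusted p under 0.05 in limma), without forskolin 2 (21) or without pair 1 (25). Without control 2 or forskolin 2 only 1 dye holds both groups, and the fit rests on forskolin 2 or control 2 alone. With no dye term, chosen after seeing the data, 12 and 7 probes passed without these samples, and 0 members. The count was 3 without control 3, 6 without forskolin 3 and 27 without pair 3. The count of 0 called members became 1 under scaling to the 75th percentile, 1 with no normalization (miR-689 in both), 1 with no dye term (miR-690) and 3 in either block fit. It was 0 to 3 with samples or pairs left out: 2 without control 1, 1 without forskolin 1 and 3 without pair 3. With no normalization every member had the same SE of 0.63, so the pass of miR-689 there does not measure its own spread. The fit without pair 2 could not be made, since dye and treatment then coincide.

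The sign of miR-685 turned with cyclic loess (0.076), no normalization (0.23), the deposited table with quantile normalization (0.15) or as deposited (0.22), the median of the spots (0.016) and no dye term (0.021, and 0.021 with the replicate block). That of miR-709 turned with no normalization (0.46), the median of the spots (0.080) and no dye term (0.036, and 0.036 with the replicate block). Without control 2 or forskolin 2 and with no dye term, miR-685 had 0.049 and 0.054 and miR-709 0.14 and 0.025, and miR-762 had -0.11 without control 2. With samples or pairs left out, miR-685 ran from -0.13 to 0.16, miR-705 from -0.11 to 1.56, miR-709 from -0.21 to 0.14 and miR-762 from -0.16 to 0.44. The lowest values of miR-705 and miR-762 were those without control 2, from forskolin 2 alone as the treated sample. The other causes were not tested. The median of all tested probes was 0.48 with no normalization, where miR-690 had -0.54, miR-762 1.34 and miR-1224 1.80, and -0.22 under the 75th percentile. Detection of the 7 probes in 6 of 6 samples held with the background taken from probes at or below the sample median, under which forskolin 2 had 227 probes detected in place of 585. Signal over background limits miR-685 most.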
